A study of Homo sapiens with 10 samples.

Results

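The genes described here encode the proteins that load, fire and run DNA replication forks, together with enzymes that make deoxynucleotides and the chromatin assembly factor that follows the fork. They were taken as a list of 54 gene symbols and matched through their Ensembl identifiers to GENCODE symbols. All 54 were found among the 63299 genes of the count tables, of which 32705 had at least 1 count, and all 54 were among the 16143 genes that passed the filter on low counts. The list was divided into helicase loading (9 genes), the CMG helicase (11), origin firing (4), the replicative polymerases (12), the clamp, its loader and ligation (12), dNTP supply (4) and chromatin assembly (2).

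Transcripts were measured by sequencing polyadenylated RNA from U2OS cells, an established human osteosarcoma line that the labels spell U20S. Cells had received pooled siRNAs for 48 h, either a control knockdown or a DDX41 knockdown, and each group held 5 libraries. DDX41 is a DEAD-box helicase, and the comparison asked how its loss changed the mRNA profile. Nothing in the labels says whether the 5 libraries of a group came from separate cultures, so that p-values measure the spread between these libraries, which may be technical.

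Replication starts when the origin recognition complex, CDC6 and CDT1 place a double ring of MCM2 to MCM7 on DNA, a step that geminin (GMNN) blocks once it is done. Kinases then recruit CDC45 and the GINS complex to the ring, which turns it into the active CMG helicase. DNA polymerase alpha with its primase starts each strand, polymerases epsilon and delta extend the strands on the PCNA clamp, and FEN1, DNA2 and DNA ligase 1 process and join the lagging-strand pieces. Many of these genes are under E2F control and are transcribed most around the G1/S transition.

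The depth lay between 21807041 and 24896398 counts per library. DDX41 itself fell in every knockdown library, from 49.1, 49.4, 47.3, 47.2 and 50.5 CPM (read counts relative to the TMM-normalised library size) in control replicates 1 to 5 to 11.5, 13.7, 12.4, 11.2 and 12.3 CPM in the knockdown replicates, so that the groups were fully separate (log2 fold change -1.99 ± 0.049, adjusted p = 4.47e-24). Here and below the adjusted p comes from edgeR's quasi-likelihood test over the 16143 genes, with Benjamini-Hochberg adjustment, a call needs an adjusted p under 0.01, and the error of a log2 fold change is its standard error. Libraries stood slightly apart in a manner that touched the replication genes. DDX41 knockdown replicate 2 was below the mean of its group for 51 of the 54 genes, with a median of -0.05 on the log2 scale. Control knockdown replicate 2 was raised for transcripts of at least 60% GC, by 0.10 in the median, and control knockdown replicate 3 deviated the other way, by -0.08. The counts of the 54 genes and their sub-groups are therefore also given without both libraries numbered 2. Of the U2OS lineage genes examined, SPARC, VIM, COL1A1 and FN1 were high (2807, 2465, 1875 and 1672 CPM in control libraries). RUNX2 and ALPL stood at only 32.4 and 5.01 CPM in control libraries. COL1A2 and TWIST1 were too low to be tested, with at most 18 and 1 counts in any library. Of that list of 8 genes, 3 were lower and 1 was higher among the 6 tested, against 32.1% lower and 30.3% higher of all tested genes. The smallest adjusted p belonged to RUNX2 (-0.40, adjusted p = 2.24e-09) and SPARC (0.18, adjusted p = 1.42e-07), while ALPL fell furthest (-0.70, adjusted p = 5.51e-06). Exon bases are shared with another counted gene in 21 of the 54 genes. In 12 of these the count of an overlapping gene reached 10% or more of the gene's own. They were ORC4, GINS1, GINS2, DBF4, PRIM1, RFC4, RFC5, RPA1, RPA3, FEN1, CHAF1A and CHAF1B, and other counting rules could assign these reads differently. The overlap was on the same strand for FEN1 with FADS2 (49 bases), PRIM1 with NACA (139) and CHAF1B with MORC3 (89).

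Of the 54 genes, 24 were lower after DDX41 knockdown, 10 were higher and 20 were not called. Across all 16143 tested genes, 32.1% were called lower and 30.3% higher, so that the share of replication genes called lower (44.4%) lay above the share over all genes and the share called higher (18.5%) below it. In 23 replication genes all 5 knockdown libraries lay below all 5 control libraries, a pattern found in 29.3% of tested genes, and in 9 genes they lay above them, against 26.7% of tested genes. The median log2 fold change was -0.09 for the replication genes and near 0 (-0.001) for all tested genes. It was -0.06 for the replication genes both after GC correction and without both libraries numbered 2. Changes were modest: the median absolute log2 fold change of the called replication genes was 0.21, compared with 0.41 for all called genes, and no replication gene passed an absolute log2 fold change of 1. The replication genes were also more abundant than most, with a median of 87.8 CPM in control libraries against 20.4 CPM, and more counts allow smaller changes to be called. Because whole cultures were measured, fewer cells in S phase and less RNA per cell cannot be told apart in any of these values. Without both libraries numbered 2, 23 genes were lower and 13 higher.

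**Figure D1:**
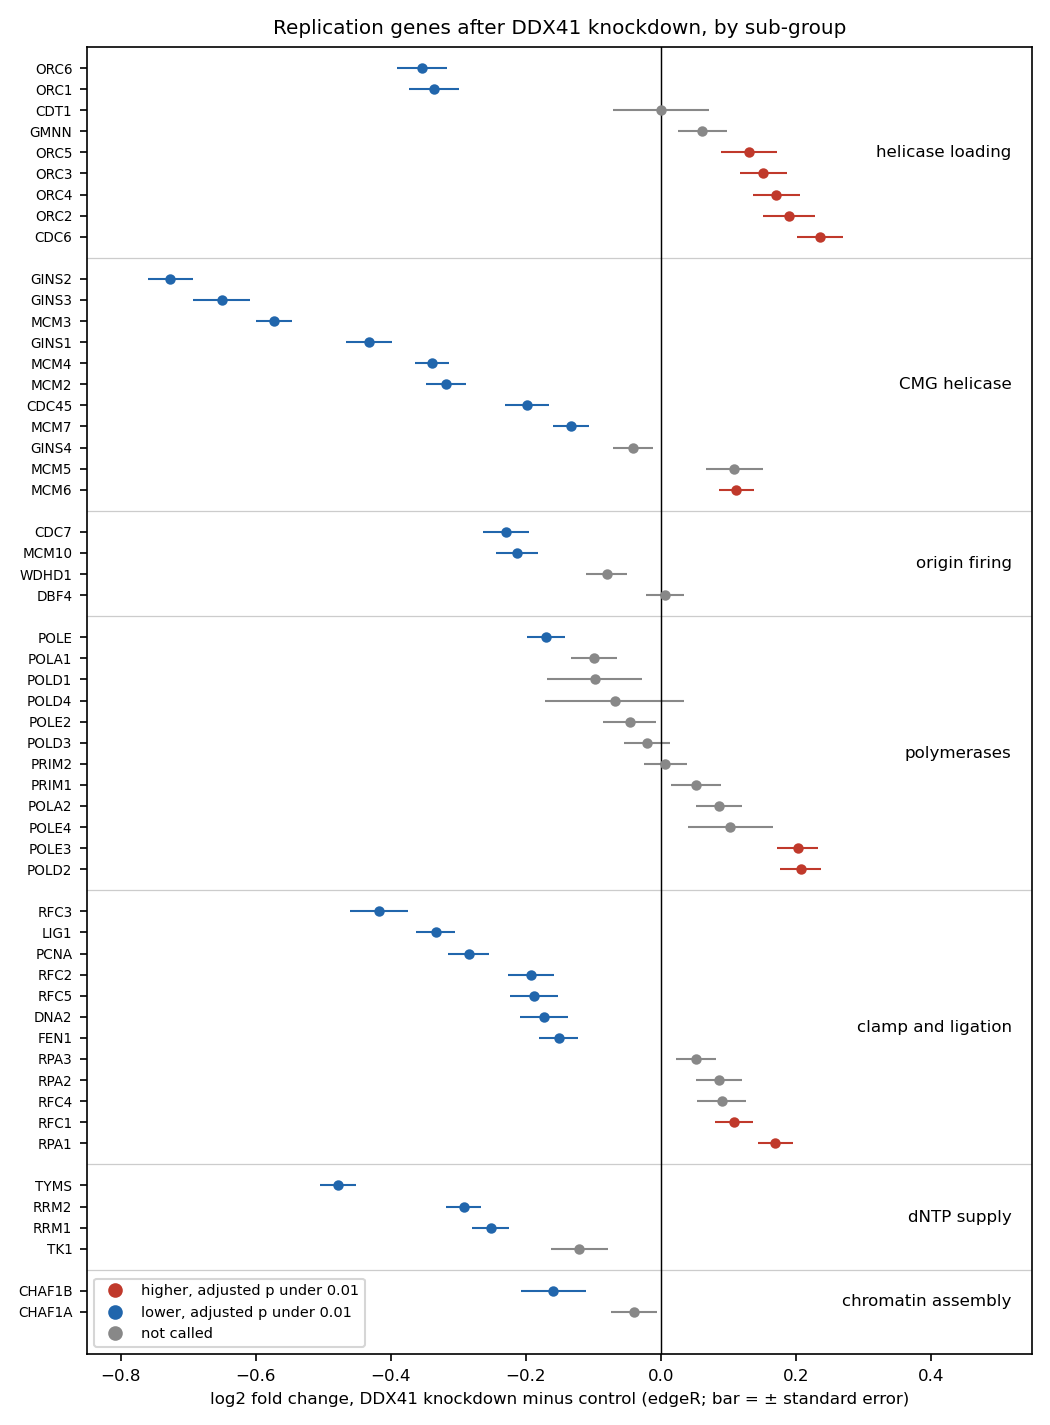
Log2 fold change of the 54 replication genes (x axis, DDX41 knockdown minus control knockdown, bars ± standard error) grouped by sub-group and coloured by the edgeR call. The 8 CMG helicase genes called lower reach -0.73, and 9 of the 12 polymerase genes were not called.

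The CMG helicase and dNTP supply genes had the lowest medians. Counts of called genes, here and below, stand beside 32.1% of all tested genes called lower and 30.3% called higher. In groups this small several counts lie near or below those shares. Of the 11 CMG genes, 8 were lower and 1 was higher, and the sub-group's median log2 fold change was -0.32. Of the 4 dNTP genes 3 were lower and TK1 was not called (median -0.27). The clamp and ligation genes had 7 lower and 2 higher of 12 (median -0.16, and -0.10 after GC correction). Helicase loading had 5 higher and 2 lower of 9 (median 0.13), which became 3 higher and 2 lower after GC correction (median 0.08) and 6 higher and 6 lower with MCM2 to MCM7 counted in it (median 0.06). The polymerases centred near 0, with 2 higher, 1 lower and 9 not called (median -0.01). Of the 4 origin firing genes 2 were lower (median -0.15), which became 3 after GC correction (median -0.19). Of the 2 chromatin assembly genes 1 was lower (median -0.10). Sub-groups are small and were chosen by function with earlier results known, and no test between them was made. Without both libraries numbered 2 these counts were the same except for 2 higher CMG genes, 4 higher clamp and ligation genes and no lower chromatin assembly gene.

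**Figure D2:**
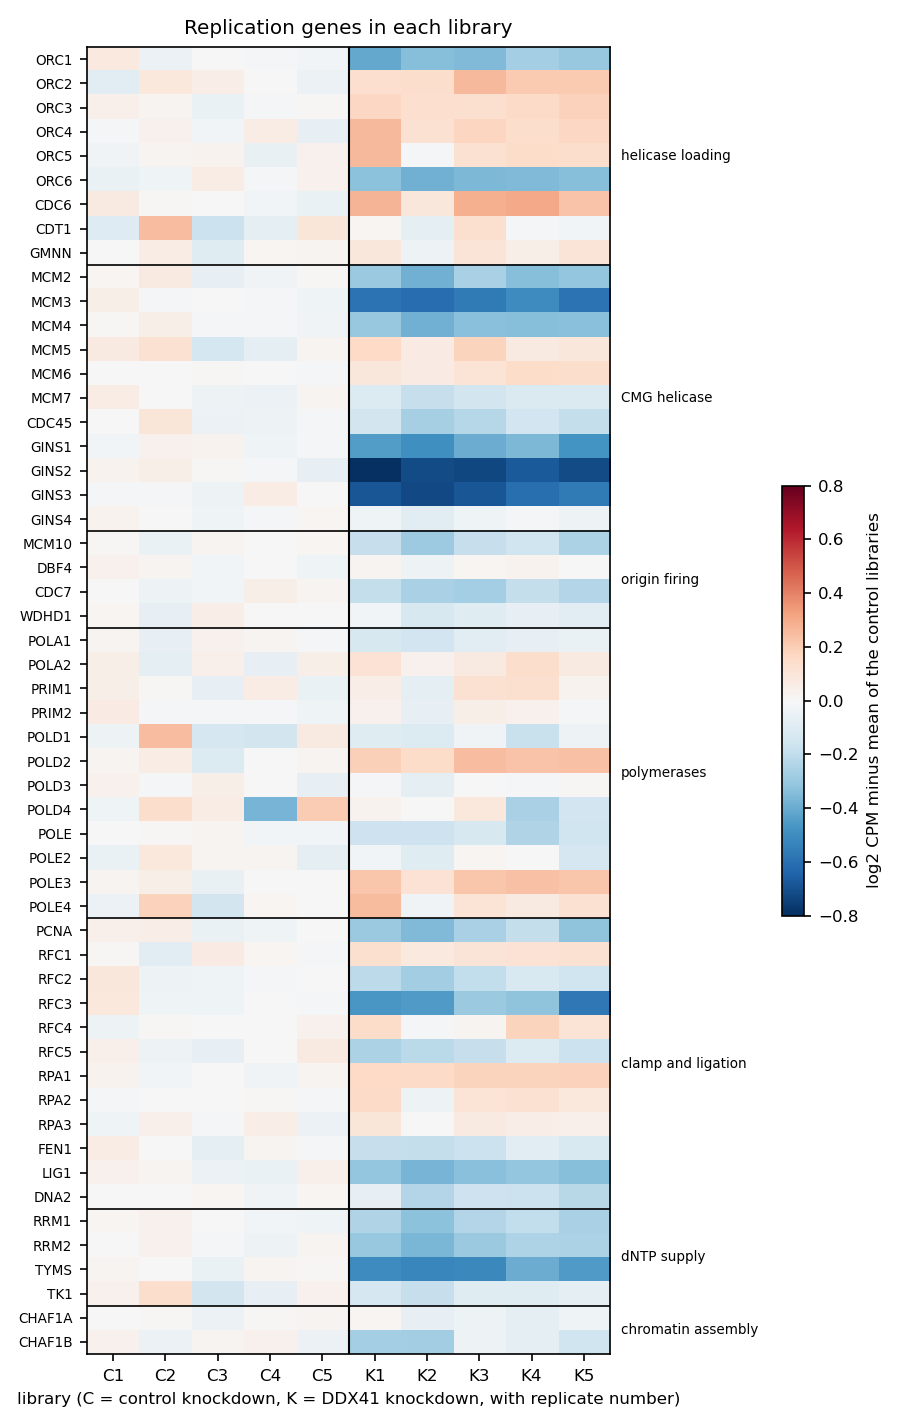
Log2 CPM of each replication gene (rows, by sub-group) in each library (columns; C, control knockdown; K, DDX41 knockdown), minus the mean of the 5 control libraries. GINS2, GINS3 and MCM3 are lower in each of the 5 knockdown libraries, whereas MCM6, POLD2 and RPA1 are higher in each.

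Within helicase loading the origin recognition complex split between its subunits. ORC1 and ORC6 fell, and ORC2, ORC3, ORC4 and ORC5 rose. ORC6, the smallest subunit (chr16:46689643-46698394, plus strand, GRCh38), had the largest fall of the sub-group, with 44.4, 44.9, 48.0, 45.7 and 47.2 CPM in the control libraries and 36.7, 35.2, 35.9, 36.1 and 36.3 CPM in the knockdown libraries. Every knockdown library lay below every control library (means 46.0 ± 1.52 and 36.0 ± 0.539 CPM, log2 fold change -0.35 ± 0.037, adjusted p = 1.12e-09). ORC1, an ATP-binding subunit whose protein is degraded after each G1 phase, changed from 55.1 ± 1.82 to 43.6 ± 1.57 CPM (mean ± SD, n = 5 per group, control first, as in all pairs of means below), again without overlap (log2 fold change -0.34 ± 0.037, adjusted p = 2.66e-09). The core subunits that rose did so by less. ORC2 went from 46.9 ± 2.26 to 53.5 ± 1.97 CPM (0.19, adjusted p = 7.33e-05), ORC4 from 56.3 ± 1.93 to 63.4 ± 2.32 CPM (0.17, adjusted p = 8.93e-05) and ORC3 from 41.7 ± 0.996 to 46.3 ± 0.737 CPM (0.15, adjusted p = 3.64e-04), each value after the means being the log2 fold change. ORC5 was weaker still, at 44.1 ± 1.27 and 48.3 ± 3.27 CPM, and its groups overlapped because knockdown replicate 2, at 43.6 CPM, reached into the control range of 42.3 to 45.2 CPM (log2 fold change 0.13 ± 0.042, adjusted p = 0.00679). That call was lost in 6 of the 10 fits that left out 1 library, with adjusted p up to 0.0364, and ORC3 and ORC5 were also lost after correction for GC content, under which ORC4 kept its call with a smaller change (0.10, adjusted p = 0.00729). Reads of ORC4 may include some of ACVR2A and MBD5, which overlap its exons on the opposite strand and had 43.4% and 39.1% of its counts.

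Before GC correction CDC6, the ATPase that joins ORC to load the MCM ring, had the largest rise of all 54 genes (chr17:40287879-40304657, plus strand). After that correction POLD2 rose more (log2 fold change 0.30, against 0.24 for CDC6). CDC6 was measured at 158, 152, 151, 148 and 145 CPM in the control libraries and 182, 160.4, 184, 186 and 177 CPM in the knockdown libraries. The lowest knockdown value, in replicate 2, was just above the highest control value, in replicate 1 (means 151 ± 4.75 and 178 ± 10.2 CPM, log2 fold change 0.24 ± 0.034, adjusted p = 6.54e-07). Its partner CDT1 was not called. CDT1 averaged 47.6 ± 5.77 CPM in control and 47.6 ± 2.47 CPM in knockdown libraries, with control replicate 2 highest of the 10 libraries (log2 fold change 0.00 ± 0.072, adjusted p = 0.998). Single values were 44.02, 56.2, 42.0, 45.1 and 50.6 CPM in control and 47.7, 45.1, 51.6, 46.8 and 46.6 CPM in knockdown libraries. Geminin, the inhibitor of CDT1, was at 61.7 ± 2.43 and 64.4 ± 2.62 CPM and was not called (0.06, adjusted p = 0.132). It read 61.5, 64.4, 57.8, 62.4 and 62.5 CPM over the control and 65.6, 60.1, 66.4, 63.8 and 66.2 CPM over the knockdown libraries, which overlapped.

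In the CMG helicase, 3 of the 4 GINS genes fell and the fourth was not called. GINS2 (chr16:85676198-85690073, minus strand) had the largest fall of all 54 genes, with 90.3, 91.1, 88.8, 87.3 and 84.3 CPM in control and 50.5, 53.9, 53.3, 55.5 and 53.8 CPM in knockdown libraries. Its level fell by 39.6%, and the groups lay far apart (means 88.4 ± 2.68 and 53.4 ± 1.8 CPM, log2 fold change -0.73 ± 0.034, adjusted p = 1.13e-17). GINS3 fell from 37.7 ± 0.913 to 24.0 ± 1.09 CPM (log2 fold change -0.65 ± 0.042, adjusted p = 3.07e-14) and GINS1 from 69.9 ± 1.51 to 51.8 ± 1.94 CPM (log2 fold change -0.43 ± 0.034, adjusted p = 2.62e-12), both without overlap. GINS4, whose protein sits in the same tetramer in equal number, was at 88.7 ± 1.57 and 86.2 ± 1.49 CPM and was not called (-0.04, adjusted p = 0.212). GINS2 shares 7 exon bases with GSE1 and GINS1 shares 259 with NINL, each on the opposite strand. CDC45, which completes the helicase, was lower at 108 ± 4.30 and 94.3 ± 3.21 CPM (-0.20, adjusted p = 3.69e-06).

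The 6 ring subunits, which assemble in equal number, changed unequally. MCM3 fell furthest, with 367 to 388 CPM over the control libraries and 246 to 264 CPM over the knockdown libraries (means 375 ± 7.91 and 252 ± 7.41 CPM, log2 fold change -0.57 ± 0.027, adjusted p = 1.45e-17). MCM4 spanned 352 to 370.1 CPM in control and 275 to 291 CPM in knockdown libraries (means 359 ± 7.21 and 284 ± 5.61 CPM, -0.34, adjusted p = 9.95e-13), and MCM2 222 to 244 and 178 to 194 CPM (means 232 ± 8.23 and 186 ± 6.05 CPM, -0.32, adjusted p = 9.35e-11). MCM7, the most abundant of the 6 in CPM, had a smaller fall, with 697 to 749.5 CPM in control and 634 to 667 CPM in knockdown libraries (means 719.7 ± 22.0 and 656 ± 14 CPM, -0.13, adjusted p = 4.88e-05), and that call was lost after GC correction (log2 fold change -0.04, adjusted p = 0.215). These 4 subunits showed no overlap between groups. MCM6 was the member of the ring called higher. Its levels were 193, 193, 194, 193 and 192 CPM in control and 206, 202, 209, 214 and 213 CPM in knockdown libraries, all of the latter above all of the former. The rise of 8.05% was small (means 193 ± 0.826 and 209 ± 4.96 CPM, log2 fold change 0.11 ± 0.026, adjusted p = 3.74e-04). Control libraries lay closer together (192 to 194 CPM) than knockdown libraries (202 to 214 CPM). MCM5 covered 197 to 236 CPM in control and 227 to 245 CPM in knockdown libraries, which overlapped, and was not called (means 217 ± 16.2 and 235 ± 8.24 CPM, 0.11, adjusted p = 0.0263). It was called higher without control knockdown replicate 2 (adjusted p = 0.00131), after GC correction (log2 fold change 0.21, adjusted p = 1.56e-05) and with no filter on low counts.

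Per length, the ring genes did not start from equal levels. Over the union of all exons, control libraries held 145 CPM per kb of MCM7, 103 of MCM3, 49.2 of MCM2, 46.7 of MCM6, 36.4 of MCM4 and 29.9 of MCM5. After knockdown the same levels were 132, 69.1, 39.4, 50.5, 28.8 and 32.3 CPM per kb, so that MCM6 moved above MCM2. Lengths matter for this order: per kb of the canonical transcript MCM4 was the third in control libraries, at 88.3 CPM per kb against 67.5 for MCM2, and MCM6 the lowest at 51.5. MCM7 and MCM3 were first and second on both lengths. Of the GINS genes, GINS2 was the highest per kb of exon in control libraries (27.4 CPM per kb) and GINS4 second (16.3), and after knockdown the values were 16.6 and 15.8. Per kb of the canonical transcript they were 33.6 and 23.5 in control and 20.3 and 22.9 in knockdown libraries, with GINS4 then above GINS2.

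Among the origin firing genes, the kinase subunit fell and its activator was not called. CDC7 (chr1:91500851-91525764, plus strand), the kinase that phosphorylates the MCM ring, had 55.6, 54.4, 54.96, 57.6 and 56.6 CPM in control and 49.0, 46.6, 46.3, 48.9 and 47.4 CPM in knockdown libraries. No knockdown library reached the lowest control library (means 55.8 ± 1.29 and 47.6 ± 1.28 CPM, log2 fold change -0.23 ± 0.034, adjusted p = 8.89e-07). DBF4, the regulatory subunit without which CDC7 is inactive, was measured at 119 ± 2.46 and 119.6 ± 2.27 CPM (0.01, adjusted p = 0.868), with 122, 121, 117, 119 and 116 CPM in control and 121, 116, 121, 122 and 119 CPM in knockdown libraries, although 145 of its exon bases are shared with SLC25A40 on the opposite strand. MCM10, which joins the helicase as it is activated, was lower at 102 ± 2.02 and 88.1 ± 3.34 CPM (-0.21, adjusted p = 5.66e-07). WDHD1, the trimeric adaptor that ties polymerase alpha to the helicase, was at 124 ± 3.70 and 118 ± 3.40 CPM and was not called (-0.08, adjusted p = 0.0185), but it was called lower without control knockdown replicate 2 (adjusted p = 0.00558) and after GC correction (log2 fold change -0.15, adjusted p = 9.45e-06).

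The replicative polymerases had the fewest calls for their number. By edgeR none of the 4 polymerase alpha-primase genes was called, nor by DESeq2, although POLA1 and POLA2 were under an unadjusted p of 0.05. POLA1, the catalytic subunit, was at 63.6 ± 1.83 and 59.3 ± 1.73 CPM (-0.10, adjusted p = 0.0106), POLA2 at 68.5 ± 2.87 and 72.7 ± 2.11 CPM (0.09, adjusted p = 0.0267), and the primase genes PRIM1 and PRIM2 at 89.0 ± 3.47 and 92.3 ± 5.22 CPM and at 80.3 ± 2.09 and 80.7 ± 2.50 CPM. For POLA1 the libraries gave 64.6, 60.7, 65.2, 64.6 and 62.9 CPM in control and 58.1, 57.1, 59.7, 60.7 and 61.2 CPM in knockdown, and for POLA2 70.7, 65.2, 70.5, 65.5 and 70.7 CPM and 74.0, 70.1, 72.1, 75.6 and 72.0 CPM, so that in both genes the groups overlapped at their edges. PRIM1 read 92.1, 89.6, 85.0, 92.6 and 85.9 CPM and 92.5, 84.4, 96.8, 97.2 and 90.5 CPM, and PRIM2 83.9, 79.8, 79.6, 79.8 and 78.4 CPM and 82.3, 76.9, 82.8, 82.0 and 79.4 CPM, with overlap throughout. The calls of POLA1 and POLA2 depended on the correction: after GC correction POLA1 was lower (-0.15, adjusted p = 1.08e-04) and POLA2 higher (0.12, adjusted p = 0.00112). POLA1 was also called lower without control knockdown replicate 2 or without DDX41 knockdown replicate 5, with adjusted p down to 0.00402, and POLA2 was called higher with upper-quartile factors.

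Polymerase epsilon, which copies the leading strand, had 1 gene called in each direction. POLE (chr12:132623753-132687376, minus strand), its catalytic subunit, was measured at 143, 144, 145, 141 and 140.4 CPM in control and 127, 127, 131, 121 and 128 CPM in knockdown libraries, without overlap (means 142 ± 1.99 and 127 ± 3.60 CPM, log2 fold change -0.17 ± 0.028, adjusted p = 4.22e-06). That change was smaller under GC correction and missed the threshold (log2 fold change -0.08, adjusted p = 0.0104). POLE3, a histone-fold subunit that also serves in chromatin remodelling, rose from 142 ± 3.95 to 163 ± 5.57 CPM (0.20, adjusted p = 5.82e-07). POLE2 (48.2 ± 2.07 and 46.7 ± 2.08 CPM) and POLE4 (13.9 ± 1.18 and 14.9 ± 1.07 CPM) were not called. Polymerase delta, which makes the lagging strand, had POLD2 as its called gene. POLD2 (chr7:44114631-44124358, minus strand), the subunit that joins the catalytic chain to the rest, had 201, 206, 184, 198 and 201 CPM in control and 226, 219, 235, 232 and 233 CPM in knockdown libraries, all of the latter above all of the former (means 198 ± 8.58 and 229 ± 6.45 CPM, log2 fold change 0.21 ± 0.030, adjusted p = 5.74e-07). The catalytic gene POLD1 was at 82.9 ± 9.69 and 77.5 ± 3.14 CPM, with control libraries from 74.6 to 98.0 CPM, and was not called (-0.10, adjusted p = 0.236). POLD3 (58.0 ± 1.71 and 57.2 ± 1.33 CPM) and POLD4, the least abundant of the 54 genes (4.64 ± 0.677 and 4.43 ± 0.432 CPM), were not called either.

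**Figure D3:**
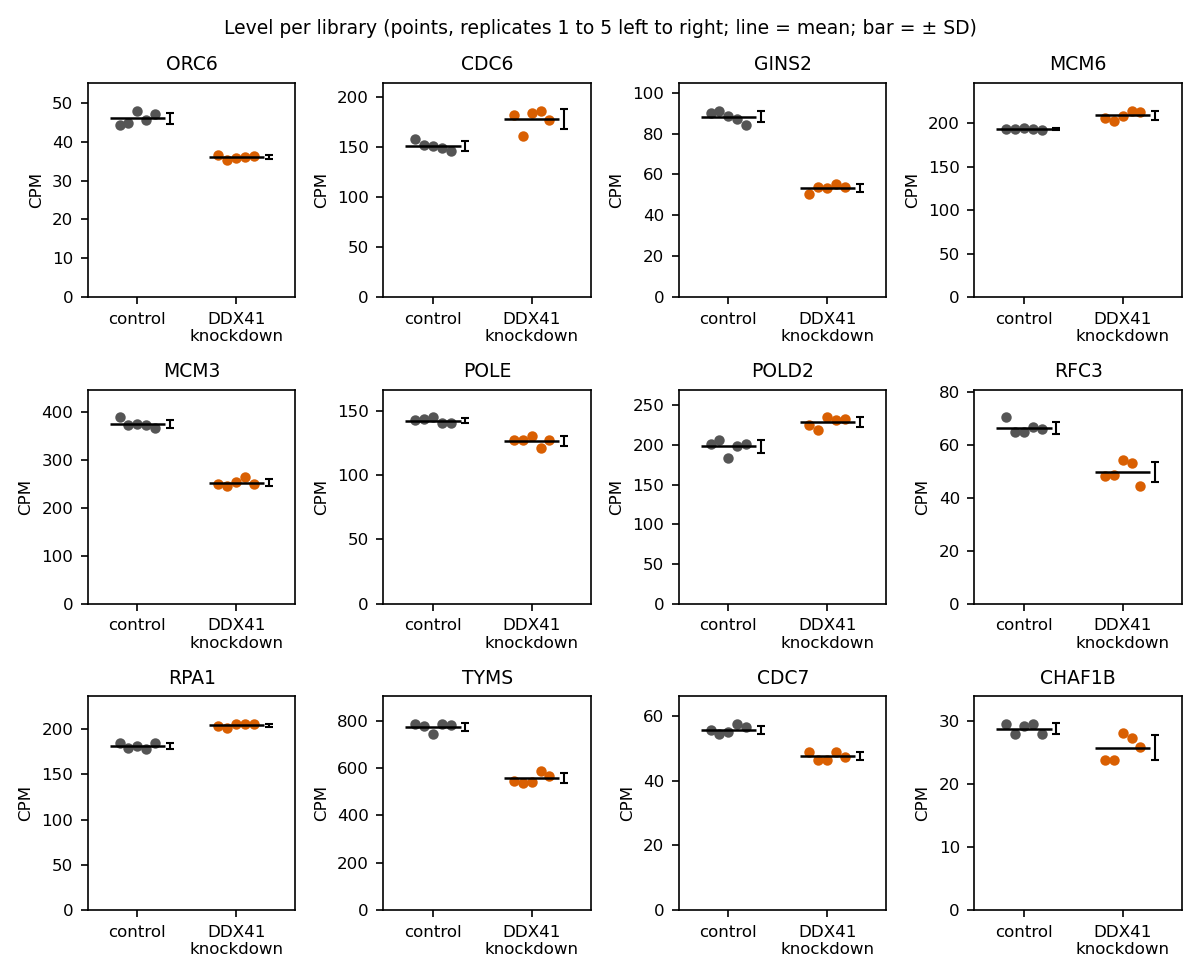
CPM (y axes, from 0) of 12 replication genes in each control knockdown (grey) and DDX41 knockdown (orange) library, with the group mean (line) and SD (bar). GINS2, MCM3, TYMS and RFC3 show wide gaps between groups, and CHAF1B is the gene shown whose groups overlap.

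The clamp fell with most of its loader. PCNA, the sliding clamp that tethers the polymerases, covered 349 to 377 CPM in control and 283 to 318 CPM in knockdown libraries (means 363 ± 11.9 and 298 ± 13.2 CPM, log2 fold change -0.28 ± 0.030, adjusted p = 1.43e-09). The loader RFC consists of the large subunit RFC1 and the small subunits RFC2 to RFC5. RFC3 (chr13:33818069-33966558, plus strand) fell furthest, from 70.3, 64.7, 64.7, 66.5 and 65.9 CPM in the control libraries to 48.1, 48.5, 54.1, 53.2 and 44.6 CPM in the knockdown libraries, which varied more among themselves but did not reach the control range (means 66.4 ± 2.31 and 49.7 ± 3.93 CPM, log2 fold change -0.42 ± 0.043, adjusted p = 1.57e-09). RFC2 was lower at 87.2 ± 3.17 and 76.3 ± 3.12 CPM (-0.19, adjusted p = 1.14e-05), as was RFC5 at 71.9 ± 2.79 and 63.2 ± 2.40 CPM (-0.19, adjusted p = 2.65e-05), a gene that shares 186 exon bases with WSB2 on the opposite strand. RFC4 was not called at 68.8 ± 1.22 and 73.3 ± 4.16 CPM (0.09, adjusted p = 0.0269), but was called higher without DDX41 knockdown replicate 2 (adjusted p = 0.00447). RFC1, the large subunit, was higher at 173 ± 6.49 and 187 ± 2.64 CPM (0.11, adjusted p = 0.00126), a call lost after GC correction (adjusted p = 0.0154).

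RPA, the trimer that covers single-stranded DNA, had 1 gene called higher and 2 not called. RPA1 (chr17:1829702-1900082, plus strand), the large subunit that carries most of the DNA-binding domains, rose from 185, 179, 181, 178 and 184 CPM in control libraries to 203, 201, 205, 205 and 206 CPM in knockdown libraries. The knockdown libraries were tightly grouped and lay above every control library (means 181 ± 3.24 and 204 ± 1.84 CPM, log2 fold change 0.17 ± 0.026, adjusted p = 1.01e-06). RPA2 was at 74.8 ± 0.460 and 79.4 ± 4.07 CPM (0.09, adjusted p = 0.0265) and RPA3 at 125 ± 3.75 and 129.6 ± 3.34 CPM (0.05, adjusted p = 0.117), neither called. RPA2 was lowest of all 10 libraries in knockdown replicate 2 (72.6 CPM), and without that library it was called higher (adjusted p = 0.00135). The 3 lagging-strand enzymes were each lower. LIG1, which seals nicks, fell from 152 ± 4.66 to 120.5 ± 2.09 CPM (-0.33, adjusted p = 1.70e-11), DNA2, which trims long flaps, from 60.3 ± 0.704 to 53.6 ± 2.51 CPM (-0.17, adjusted p = 7.98e-05), and FEN1, which cuts short flaps, from 221 ± 7.39 to 199 ± 6.07 CPM (-0.15, adjusted p = 3.47e-05). The change of FEN1 was smaller after GC correction (-0.08, adjusted p = 0.00911).

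Of the dNTP genes 3 of 4 were called lower, against 32.1% of all tested genes. TYMS (chr18:657653-673578, plus strand), which makes dTMP from dUMP, had 786, 776, 745, 785 and 779 CPM in control and 547, 538, 541, 588 and 565 CPM in knockdown libraries. Its level fell by 28.2%, and the groups lay well apart (means 774 ± 17.0 and 556 ± 20.7 CPM, log2 fold change -0.48 ± 0.027, adjusted p = 1.49e-15). The gene ENOSF1 runs into TYMS from the opposite strand and shares 39.9% of its exon bases, with counts equal to 3.01% of those of TYMS. RRM2, the ribonucleotide reductase subunit that carries the radical and whose level limits the enzyme in S phase, fell from 531 ± 10.6 to 434 ± 13.8 CPM (log2 fold change -0.29 ± 0.027, adjusted p = 5.59e-11). RRM1, the catalytic subunit, fell from 286 ± 5.62 to 241 ± 7.80 CPM (log2 fold change -0.25 ± 0.027, adjusted p = 2.27e-09). Control libraries held 530.1, 544, 526, 517 and 539 CPM of RRM2 and knockdown libraries 430.4, 413, 433, 447 and 446 CPM. For RRM1 they held 289.8, 294, 286, 282 and 279.8 CPM and 243, 228, 243, 249.6 and 239 CPM. The groups were separate for both subunits. Per kb of exon the control levels of RRM1 and RRM2 were 67.7 and 58.0 CPM per kb, whereas per kb of the canonical transcript they were 91.2 and 163, so that their order depended on the length used. TK1, thymidine kinase of the salvage route, was at 325 ± 24.6 and 299 ± 9.29 CPM and was not called (-0.12, adjusted p = 0.0167). Leaving out control knockdown replicate 3 or 4 made it called lower, with adjusted p down to 1.16e-04, as did testing with no filter on low counts.

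Chromatin assembly factor 1 deposits histones H3 and H4 behind the fork. Its subunit CHAF1B (chr21:36385392-36419015, plus strand) was measured at 29.5, 27.9, 29.2, 29.5 and 27.9 CPM in control and 23.8, 23.8, 28.0, 27.3 and 25.8 CPM in knockdown libraries, and knockdown replicate 3 reached into the control range (means 28.8 ± 0.845 and 25.7 ± 1.96 CPM, log2 fold change -0.16 ± 0.049, adjusted p = 0.00470). This call was lost in 4 of the 10 fits without 1 library, with adjusted p up to 0.0233, and also under GC correction and in DESeq2. The log2 fold change of CHAF1B lay between -0.19 and -0.13 in those 10 fits and was -0.13 after GC correction. CHAF1A was not called at 52.0 ± 0.950 and 50.6 ± 1.27 CPM (-0.04, adjusted p = 0.294), and its libraries overlapped, with 52.2, 52.4, 50.4, 52.3 and 52.8 CPM in control and 52.5, 49.6, 50.7, 49.3 and 50.9 CPM in knockdown. With these exceptions, ORC5 and CHAF1B, 32 of the 34 called genes were called in each of the 10 fits that left out 1 library.

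Partner genes were then compared within each library, which removes the scaling between libraries. For 6 pairs the log2 ratio of read counts was taken in each library and compared between groups by an exact two-sided permutation test over the 10 libraries, in which the smallest possible p is 0.00794, with adjustment over the 6 pairs. For these ratios the threshold was an adjusted p under 0.05, looser than the 0.01 used for single genes, and no ratio had an adjusted p under 0.01. The pairs were picked by function, with the gene values above already known. CDC7/DBF4 fell from -1.14, -1.15, -1.09, -1.05 and -1.04 in control libraries to -1.30, -1.32, -1.38, -1.32 and -1.33 in knockdown libraries, all of the latter lower (difference -0.23, exact two-sided permutation p = 0.00794, adjusted p = 0.0238). POLA1/POLA2 also separated, with -0.13, -0.10, -0.11, -0.02 and -0.17 in control and -0.35, -0.30, -0.27, -0.32 and -0.23 in knockdown libraries (difference -0.19, exact two-sided permutation p = 0.00794, adjusted p = 0.0238). Neither gene was called alone at 0.01, but at the 0.05 used for ratios both would pass in edgeR (adjusted p = 0.0106 for POLA1 and 0.0267 for POLA2). Both ratios thus reached the smallest p that the design allows.

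The other 4 ratios did not pass 0.05. RRM1/RRM2, the reductase subunits, was -0.89 ± 0.031 in control and -0.85 ± 0.029 in knockdown libraries (mean ± SD, difference 0.04, exact two-sided permutation p = 0.0635, adjusted p = 0.127). It passed 0.05 without DDX41 knockdown replicate 5 (difference 0.05, exact permutation test, adjusted p = 0.0317). PRIM1/PRIM2, the primase, was 0.15 ± 0.044 and 0.19 ± 0.044 (difference 0.04, exact two-sided permutation p = 0.135, adjusted p = 0.162). CHAF1A/CHAF1B was 0.85 ± 0.060 and 0.98 ± 0.127, with the knockdown libraries spread from 0.85 to 1.14 (difference 0.12, exact two-sided permutation p = 0.0952, adjusted p = 0.143). CDT1/GMNN, the loading factor and its inhibitor, was -0.38 ± 0.127 and -0.44 ± 0.054 (difference -0.05, exact two-sided permutation p = 0.444, adjusted p = 0.444).

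**Figure D4:**
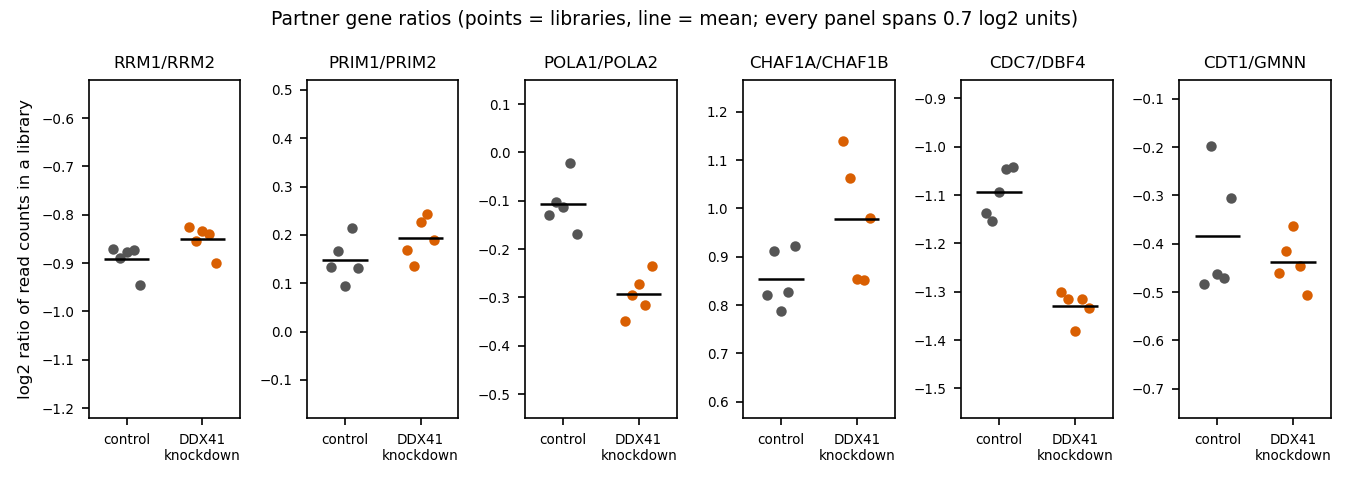
Log2 ratio of read counts of 6 partner gene pairs (y axes, each spanning the same range) in each control knockdown (grey) and DDX41 knockdown (orange) library, with group means as lines. The groups are separate for POLA1/POLA2 and CDC7/DBF4 and overlap for the other pairs.

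Since E2F sites are common in the promoters of replication genes, the RefSeq promoter windows (250 bases before to 50 after the annotated start, GRCh38.p14) were searched on both strands. Windows were matched by symbol for 47 of the 54 genes, and GINS4, MCM4, MCM5, DNA2, POLD3, RPA2 and RPA3 had none. A full E2F motif (TTTGGCGC, TTTCCCGC, TTTCGCGC or TTTGCCGC) was present in 21 of the 47 genes (44.7%), against 3.99% of 27305 genes with a window and 6.31% of 11491 such genes that were tested. Genes with the motif included 12 called lower, 3 called higher and 6 not called (median log2 fold change -0.17), and the 26 without it included 10 lower, 7 higher and 9 not called (median -0.07). Over all tested genes 32.1% were called lower and 30.3% higher, and no test between genes with and without the motif was made. A CCAAT box (CCAAT) was found in 27 of the 47 genes (57.4%, against 39.7% of genes), and the cell-cycle homology region of late cell-cycle promoters (TTTGAA or TTCGAA) in 4 (8.51%, against 19.5%). Among tested genes with a window these shares were 42.6% and 15.9%. These are matches of letters and no measure of binding. The 100 bases before the start are printed for 8 genes with an E2F match there, picked to include each kind of call. Before GC correction GINS2, RFC3, TYMS and POLE fell, MCM6 and ORC3 rose, and CDT1 and POLA2 were not called. After that correction POLE and ORC3 lost their calls and POLA2 was called higher. The bases run 5′ to 3′ on the strand of the gene, with E2F and CCAAT matches on either strand in capitals. In MCM6 overlapping E2F matches form 1 run of capitals.
GINS2 (chr16:85688955-85689054, minus strand): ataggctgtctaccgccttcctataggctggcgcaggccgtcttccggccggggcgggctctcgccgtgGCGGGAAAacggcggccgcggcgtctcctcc
RFC3 (chr13:33818049-33818148, plus strand): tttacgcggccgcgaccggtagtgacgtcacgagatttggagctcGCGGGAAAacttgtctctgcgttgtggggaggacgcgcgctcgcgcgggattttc
TYMS (chr18:657553-657652, plus strand): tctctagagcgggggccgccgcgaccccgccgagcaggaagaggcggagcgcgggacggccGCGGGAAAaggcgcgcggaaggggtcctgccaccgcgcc
POLE (chr12:132687343-132687442, minus strand): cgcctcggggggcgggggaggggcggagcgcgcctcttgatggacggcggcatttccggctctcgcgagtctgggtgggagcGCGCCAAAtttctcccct
MCM6 (chr2:135876444-135876543, minus strand): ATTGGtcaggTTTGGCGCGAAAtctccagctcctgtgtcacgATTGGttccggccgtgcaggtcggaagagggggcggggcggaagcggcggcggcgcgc
ORC3 (chr6:87590035-87590134, plus strand): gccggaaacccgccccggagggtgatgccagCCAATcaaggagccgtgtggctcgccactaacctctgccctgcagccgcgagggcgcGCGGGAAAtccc
CDT1 (chr16:88803689-88803788, plus strand): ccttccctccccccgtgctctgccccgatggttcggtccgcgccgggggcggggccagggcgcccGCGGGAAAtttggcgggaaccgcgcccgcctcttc
POLA2 (chr11:65261862-65261961, plus strand): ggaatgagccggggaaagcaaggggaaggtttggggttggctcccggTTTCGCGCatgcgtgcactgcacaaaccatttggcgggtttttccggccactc

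GCGGGAAA, the reverse complement of the second E2F motif, thus stood before GINS2, RFC3, TYMS, ORC3 and CDT1, of which the first 3 fell, ORC3 rose and CDT1 was not called. Among genes not printed, POLE4, which was not called, held it too, and MCM7, which fell, held TTTCGCGC. MCM6, which rose, held an E2F match and CCAAT boxes within the same window. Of the genes with matches elsewhere in their windows, CDC6 rose, MCM2, MCM3, GINS1, GINS3, CDC7, PCNA and LIG1 fell, and GMNN, POLA1 and POLE2 were not called. These calls are those before GC correction, which changed the calls of ORC3, MCM7 and POLA1.

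Transcript GC content moved with the fold change over all tested genes, by less than the larger changes above. Median log2 fold changes of all tested genes were 0.09 below 40% GC, 0.04 from 40 to 45%, -0.01 from 45 to 50%, and between -0.07 and -0.06 in the ranges above. The replication genes in the same ranges had medians of -0.08, -0.01, -0.04, -0.20, -0.10 and -0.10, over 9, 14, 15, 5, 8 and 3 genes. After a correction for GC content within each library, 28 of the 34 called genes kept their call and direction, among them CDC45 (-0.13, adjusted p = 3.76e-04) and RFC2 (-0.12, adjusted p = 0.00135) with changes over 1.5 times smaller than before. The 6 lost were ORC3, ORC5, MCM7, POLE, RFC1 and CHAF1B, and MCM5, WDHD1, POLA1, POLA2 and RPA2 became called.

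**Figure D5:**
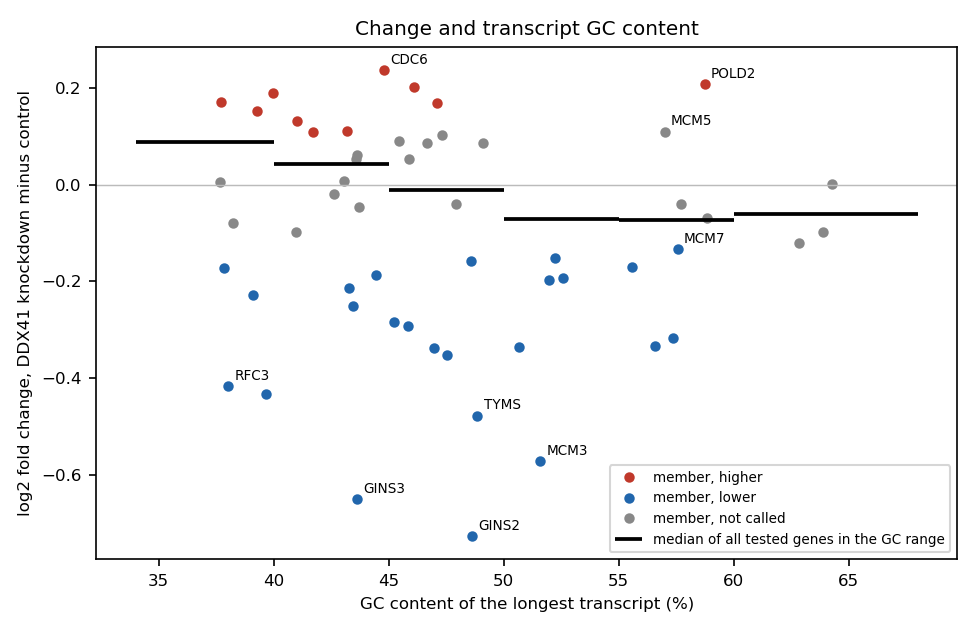
Log2 fold change of the 54 replication genes (points, coloured by call) against the GC content of the longest transcript, with the median of all tested genes in 6 GC ranges (black lines). GINS2, GINS3, MCM3, TYMS and RFC3 lie far below the black line of their range, whereas MCM7 lies near it.

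Other replication genes outside the 54 were counted in lists written for their function, with the same earlier results known. The counts of these lists stand beside 32.1% of all tested genes called lower and 30.3% called higher, and in lists this short several lie near those shares. Of 12 firing and fork protection factors, 8 were lower and 1 higher, among them the checkpoint mediator CLSPN (73.8 ± 4.91 and 57.2 ± 2.30 CPM, -0.37, adjusted p = 4.92e-09) and the firing factor TOPBP1 (195 ± 4.499 and 172 ± 4.09 CPM, -0.18, adjusted p = 1.05e-06). Of 6 genes of alternative clamp loaders and cohesion, 3 were lower, including the acetyltransferase ESCO2 (-0.19, adjusted p = 1.72e-05) and CHTF8 (-0.18, adjusted p = 1.78e-06). Termination, primer removal and topoisomerase genes were lower in 5 of 10 and higher in 1, with TOP2A (1177 ± 37.8 and 706 ± 23.8 CPM, -0.74, adjusted p = 8.74e-20) and the helicase PIF1 (52.7 ± 1.97 and 30.3 ± 1.40 CPM, -0.80, adjusted p = 9.19e-17) falling about as far as GINS2. Among 7 genes of licensing turnover 3 were lower and 1 higher. SKP2, the F-box protein that targets CDT1 and p27, fell (-0.55, adjusted p = 5.70e-16), as did the CUL4 adaptor DDB1 (-0.38, adjusted p = 1.90e-13). Without both libraries numbered 2, the firing factors had 9 lower genes and the termination genes 4, and the other counts of these 4 lists were the same.

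Beside the same 32.1% lower and 30.3% higher over all tested genes, nucleotide synthesis beyond the dNTP genes above had more genes higher than lower, 12 against 6 of 26 (median log2 fold change 0.09). CAD, which starts pyrimidine synthesis, rose from 172 ± 2.71 to 246 ± 5.65 CPM (0.52, adjusted p = 1.01e-16), and IMPDH2, which starts guanine nucleotide synthesis, fell from 522 ± 13.9 to 375 ± 10.3 CPM (-0.48, adjusted p = 1.12e-15). RRM2B, the p53-induced reductase subunit, rose (219.7 ± 8.42 and 252 ± 9.93 CPM, 0.20, adjusted p = 1.73e-06), and so did the dNTP hydrolase SAMHD1 (48.7 ± 2.82 and 53.7 ± 3.15 CPM, 0.14, adjusted p = 0.00485). Histone chaperones and maintenance methylation genes were lower in 6 of 11 and higher in 2, with ASF1B, the proliferation-linked form of ASF1 that hands histones to CAF-1, falling from 66.4 ± 2.05 to 34.05 ± 2.33 CPM (-0.96, adjusted p = 1.72e-18) and RBBP4, the CAF-1 subunit shared with other complexes, from 296 ± 6.01 to 212 ± 3.79 CPM (-0.48, adjusted p = 4.23e-16). Of 7 translesion synthesis genes 3 were higher, with the smallest adjusted p in RAD18 (0.30, adjusted p = 6.82e-07) and PRIMPOL (0.23, adjusted p = 1.13e-04). Without both libraries numbered 2, 13 genes of nucleotide synthesis were higher and the other counts were the same.

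Cell cycle transcripts were counted in the same way, against 32.1% lower and 30.3% higher of all tested genes. Of 28 G2/M transcripts 24 were lower and 1 was higher (median log2 fold change -0.30), with a summed level of 6630 to 6813 CPM in control and 5428 to 5651 CPM in knockdown libraries. CCNB1 fell from 464 ± 14.7 to 358 ± 10.9 CPM (-0.37, adjusted p = 6.88e-13) and PLK1 from 172 ± 6.96 to 104 ± 4.52 CPM (-0.73, adjusted p = 6.63e-18), and CKAP2 fell as well (-0.61, adjusted p = 1.02e-17). E2F and MYB-MuvB regulators were lower in 9 of 18 and higher in 4, including E2F1 itself (55.4 ± 0.817 and 32.8 ± 1.42 CPM, -0.75, adjusted p = 5.62e-17) and FOXM1 (509 ± 19.0 and 221 ± 13.5 CPM, -1.20, adjusted p = 3.75e-19). G1/S cyclins and CDK inhibitors were divided, 6 higher and 6 lower of 14. CCND2 (0.95, adjusted p = 2.16e-22) and the p53 target CDKN1A (155 ± 5.72 and 218 ± 5.07 CPM, 0.49, adjusted p = 3.09e-15) rose, CDK2 (-0.49, adjusted p = 1.49e-15) and CCNE1 (-0.22, adjusted p = 2.67e-06) fell, and CCNE2 was not called (-0.14, adjusted p = 0.0204). Of the 8 markers of other cell types, PECAM1, ALB and CD3E were not tested for lack of counts, PTPRC and CDH1 stayed below 1 CPM in the group means, EPCAM was not called (7.99 ± 0.447 and 8.31 ± 0.742 CPM, 0.06, adjusted p = 0.507), and CD34 (30.4 ± 1.49 and 4.66 ± 0.900 CPM, -2.71, adjusted p = 5.27e-20) and SOX2 (36.5 ± 2.12 and 9.18 ± 0.780 CPM, -1.996, adjusted p = 1.53e-22) fell. Without both libraries numbered 2, 25 G2/M transcripts and 8 regulators were lower, and the other counts of these lists were the same. The part of cell cycle distribution in the changes of the replication genes was not tested.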

How the data were processed

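RNA was measured in 10 libraries of U2OS cells, 5 per group. Per the labels and methods, the authors prepared stranded polyadenylated RNA libraries, aligned single reads to hg38 with STAR 2.7 and counted them per gene of Gencode 25 with featureCounts 1.6. The deposited values are raw counts per gene, and the strand setting and treatment of multiply mapped reads are not given in the sources used here. Groups and replicate numbers come from the labels. Each library held between 21807041 and 24896398 counts, which limits the precision of low genes such as POLD4.

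Identifiers were joined without version to GENCODE 44 on GRCh38 for names, positions, exons and GC content. Counts were tested in R 4.3.3 with edgeR 4.0.16 (filterByExpr, TMM, robust quasi-likelihood fit, Benjamini-Hochberg adjustment over 16143 genes, threshold 0.01), comparing 5 DDX41 knockdown with 5 control knockdown libraries without covariates. Standard errors were the absolute log2 fold change divided by the square root of F. On simulated counts with 200 of 15876 genes changed, the fit recovered 200 with 2 false calls. Genes raised there had a median log2 fold change of 0.572. That setting changed far fewer genes than were called here, so it did not test smaller changes or a wide shift. Ratios of partner genes were compared by exact permutation tests in scipy 1.17.1 (adjusted p threshold 0.05). Alternatives were DESeq2 1.42.0, its size factors, upper-quartile factors, no filter, a replicate block, a GC correction, other thresholds, leaving out libraries or genes with shared exons, and another place for MCM2 to MCM7. Leaving out both libraries numbered 2 and the canonical transcript length were chosen after seeing the data.

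The 54 genes, their sub-groups, the pairs and the other lists were chosen with earlier results of these data known. Group means are given for all 54, and values in every library for DDX41, for the called gene with the largest fall and rise of each sub-group and for the genes of the 6 pairs. PCNA and MCM2 to MCM7 are given as ranges. From each other list the 2 genes with the smallest adjusted p are named, with RRM2B, SAMHD1, CCNE1, CCNE2, E2F1, CDKN1A and CCNB1. One gene named by this rule is not reported here.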

Additional observations from a re-analysis of the deposited data

Results flagged for a closer look

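Within the groups of 5 libraries, 8 of 120 groups of values had 1 library far from the other 4 (the gap to its neighbour as a share of the range, above Dixon's 95% limit), where chance alone gives about 1 in 20. Control knockdown replicate 2 was high for CDC45 (115.5 CPM, the others 104.9 to 107.8) and low for MCM10 (98.6 CPM, the others 102.5 to 103.5). Control knockdown replicate 1 was high for PRIM2 (83.9 CPM, the others 78.4 to 79.8) and for RFC2 (92.7 CPM, the others 84.9 to 86.8). Control knockdown replicate 3 was low for TYMS (744.7 CPM, the others 775.7 to 785.8) and for CHAF1A (50.4 CPM, the others 52.2 to 52.8). DDX41 knockdown replicate 2 was low for POLE3 (153.1 CPM, the others 165.0 to 166.4). The RRM1/RRM2 log2 ratio was lowest in control knockdown replicate 5 (-0.95, the others -0.89 to -0.87). The calls of CDC45, MCM10, RFC2, TYMS and POLE3 held without these libraries, and PRIM2 and CHAF1A stayed uncalled.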

How the results depend on the processing

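No call of the 54 genes reversed its direction in the alternatives run. Size changed the counts most. With an absolute log2 fold change over 0.25 as a further condition, 0 genes were higher and 14 lower, with 0 higher in helicase loading, the CMG helicase, the polymerases and the clamp and ligation genes, and 0 lower in origin firing, the polymerases and chromatin assembly and 3 in clamp and ligation. Over 1, there were 0 higher and 0 lower in all sub-groups. Leaving out the 21 genes with shared exon bases left 6 higher and 14 lower: 3 higher in helicase loading, 4 lower in the CMG helicase, 1 higher in the polymerases, 1 higher and 4 lower in clamp and ligation, 1 lower in dNTP supply and 0 in chromatin assembly, since fewer genes were counted.

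The GC correction gave 3 higher genes in helicase loading, 2 higher in the CMG helicase and 0 lower in chromatin assembly, with median log2 fold changes of -0.22 for the CMG helicase, -0.19 for origin firing, -0.10 for clamp and ligation and -0.0353 for chromatin assembly. The CMG helicase had 2 higher genes with no filter on low counts, with adjusted p under 0.05 and without both libraries numbered 2. Adjusted p under 0.05 also gave 2 lower polymerase genes and 4 higher clamp and ligation genes, and the latter were also 4 with upper-quartile factors and without both libraries numbered 2. Chromatin assembly had 0 lower genes in the DESeq2 Wald test and without both libraries numbered 2. With MCM2 to MCM7 counted in helicase loading, that group had 6 higher and 6 lower genes (median 0.06) and the rest of the CMG helicase 0 higher and 4 lower (median -0.43). The E2F motif without its leading T was present in 35 of 47 genes, against 15.3% of all genes with a window and 24.2% of those tested. Where no construction of the setting shows it, the cause was not tested.

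Leaving out each library in turn gave 1 to 2 higher CMG genes (2 without control knockdown replicate 2), 1 to 2 lower polymerase genes (2 without control knockdown replicate 2 or DDX41 knockdown replicate 5), 2 to 4 higher clamp and ligation genes (4 without DDX41 knockdown replicate 2) and 0 to 1 lower chromatin assembly genes (0 without control knockdown replicate 1 or 4 or DDX41 knockdown replicate 1 or 2). The RRM1/RRM2 difference lay between 0.027 and 0.052 and passed an adjusted p of 0.05 without DDX41 knockdown replicate 5. The other ratios kept their side of 0.05. With the replicate number as a replicate block, 9 genes were higher and 24 lower, and ORC5 lost its call (adjusted p = 0.0106). Same-numbered libraries did not deviate together (correlations of -0.05 to 0.04), so that the numbers were not used as pairs. Depth allowed all 54 genes to be tested, with POLD4 the least precise.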
